A study of Homo sapiens with 22 samples.

Results

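ETS1 (ENSG00000134954.14) lies on the minus strand of chromosome 11 at 128458761 to 128587558 of the human genome build hg38, in the GENCODE release 44 annotation. Every peak was taken that overlapped the gene body or 90 kb to each side of it, which gave a window of 309 kb (128368761 to 128677558) that ended 8.98 kb before FLI1. Of the 412058 peaks in the 14 deposited lists, 22 lay in this window. TC-32 is an established cell line of Ewing sarcoma, and all libraries came from it. An siRNA was delivered at 20 nM, either a control (siNEG) or a FLI1 siRNA (siFLI1) meant to deplete the fusion protein EWSR1::FLI1. There were 2 libraries per arm for H3K27ac, for H3K4me3 and for the ETS1 protein, and 1 further H3K27ac library per arm whose antibody label adds ab4729 to the catalogue number of the other H3K27ac antibody. The 8 input libraries were not analysed here. The series asked how the fusion regulates ETS1.

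ETS1 encodes a transcription factor of the ETS family, which binds DNA through a winged helix-turn-helix domain at a GGAA core. It is known for its roles in lymphoid and endothelial cells and in cell invasion, and RAS-MAPK signalling phosphorylates it. EWSR1::FLI1 joins the transactivating part of EWSR1 to the ETS domain of FLI1, a gene that neighbours ETS1 on the chromosome. The fusion is known to open enhancers at runs of GGAA repeats and to lower the activity of other genes. H3K27ac, an acetylation of histone H3, marks active promoters and enhancers, and H3K4me3, a trimethylation, marks promoters.

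The lists held 60033 and 60404 peaks for H3K27ac in siNEG and 65509 and 61485 in siFLI1. The H3K4me3 lists held between 18353 and 19732 peaks, and the ab4729 lists held 32738 in siNEG and 51663 in siFLI1. The ETS1 lists held 302 and 208 peaks in siNEG and 1640 and 2635 in siFLI1. In the list labelled siFLI1 replicate 1 for ETS1, all 1640 peak names carried the replicate number 2, but no value in the window rests on it because both siFLI1 lists for ETS1 held 0 peaks there. Library depth was not given in the sources used here, and the lists hold no measure of FLI1 itself, so the depletion was not checked. The labels do not say whether replicates were separate cultures, so p-values measure only the spread between libraries, which may be technical.

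The H3K27ac picture at ETS1 was of presence against absence. No H3K27ac peak was listed in the window in either siNEG library, and 7 were listed in each siFLI1 library. The 14 peaks fell into 5 merged regions, all of them in both siFLI1 lists and in neither siNEG list, a pattern called gained below. Across the genome 8.19% of 90572 merged H3K27ac regions were gained. The reverse pattern, called lost, made up 4.86%, and 25.1% had a peak in all 4 lists. None of the 5 was lost or in all 4. The regions are numbered from 1 to 5 along the chromosome. Regions 1 to 3 lay within intron 1 of the main transcript (ENST00000319397), region 4 spanned the main start site, and region 5 lay far upstream of it. The main start site is that of this transcript, at 128522310, which ENST00000535549 shares, and distances are given from it.

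The 300 bases of hg38 around the summits of regions 3 and 2 are printed because these were the regions with the highest mean fold. They are read on the plus strand, which is opposite to the gene, with each GGAA or TTCC core in capitals. Region 3 is shown at chr11:128506886-128507185 and region 2 at chr11:128503895-128504194.
Region 3: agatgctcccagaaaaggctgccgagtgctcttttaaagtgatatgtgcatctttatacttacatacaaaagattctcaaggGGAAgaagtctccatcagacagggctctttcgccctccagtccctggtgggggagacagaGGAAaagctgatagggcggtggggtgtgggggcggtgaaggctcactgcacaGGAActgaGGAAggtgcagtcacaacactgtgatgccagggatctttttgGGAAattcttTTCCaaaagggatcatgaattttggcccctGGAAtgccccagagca
Region 2: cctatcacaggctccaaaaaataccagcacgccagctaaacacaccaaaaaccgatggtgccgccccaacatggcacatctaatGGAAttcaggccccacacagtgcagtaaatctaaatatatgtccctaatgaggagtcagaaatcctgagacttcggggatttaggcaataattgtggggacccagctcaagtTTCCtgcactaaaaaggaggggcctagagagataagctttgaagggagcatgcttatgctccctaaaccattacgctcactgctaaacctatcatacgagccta
The window of region 3 held 7 GGAA cores over both strands, and that of region 2 held 2. Windows of regions 4 and 5 held 5 and 1. Each window was centred on the mean of the summits in both siFLI1 lists. At region 1 the summits lay 989 bp apart, so its window held neither of them, and its motifs are not given. Among 7415 windows of gained H3K27ac regions across the genome, 94.8% held at least 1 core, with a median of 3 and a 95th percentile of 7. The fuller ETS motif CCGGAA was in none of the windows of regions 2 to 5 and in 3.76% of gained windows, against 9.80% of 22724 windows of regions in all 4 lists. The motif TGANTCA, which AP-1 factors bind, was in the window of region 4, and in 10.3% of gained windows. The motif GGAATG, which TEAD factors bind, was in region 3 once, and in 18.5% of gained windows; its GGAA overlaps the core counted above. Both strands were searched, and a match describes the letters in these windows only.

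Runs of GGAA repeats were also located in the window. Counting a run as 4 or more GGAA or TTCC units in direct succession, there were 5, and none had a peak of any list within 1 kb. No list covered more than 8639 bp of the 309 kb window with peaks, so that count is not read as a result about the runs. The longest run and the run nearest to an H3K27ac region are printed with 20 bases to each side, the run in capitals, on the plus strand. Run 1 is at chr11:128478457-128478484 and run 5 at chr11:128656036-128656051.
Run 1: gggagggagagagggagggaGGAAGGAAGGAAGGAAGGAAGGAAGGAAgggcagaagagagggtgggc
Run 5: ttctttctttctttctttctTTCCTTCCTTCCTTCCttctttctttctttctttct
Run 1 had 7 units, lay in intron 6 of the main transcript, 43.9 kb downstream of the main start site, and was 17.9 kb from region 1. Run 5 had 4 units and was 7.27 kb from region 5. The other 3 runs had 4 units each and were 50.8 to 61.7 kb from the nearest H3K27ac region. The motif CCGGAAA or CCGGAAG, read on both strands, occurred 11 times in the window. It was found 0 times in an H3K27ac region and 0 times in the H3K4me3 region. Since no list covered more than 8639 bp of the 309 kb window, these counts of 0 are not read as a result about the motif.

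**Figure D1:**
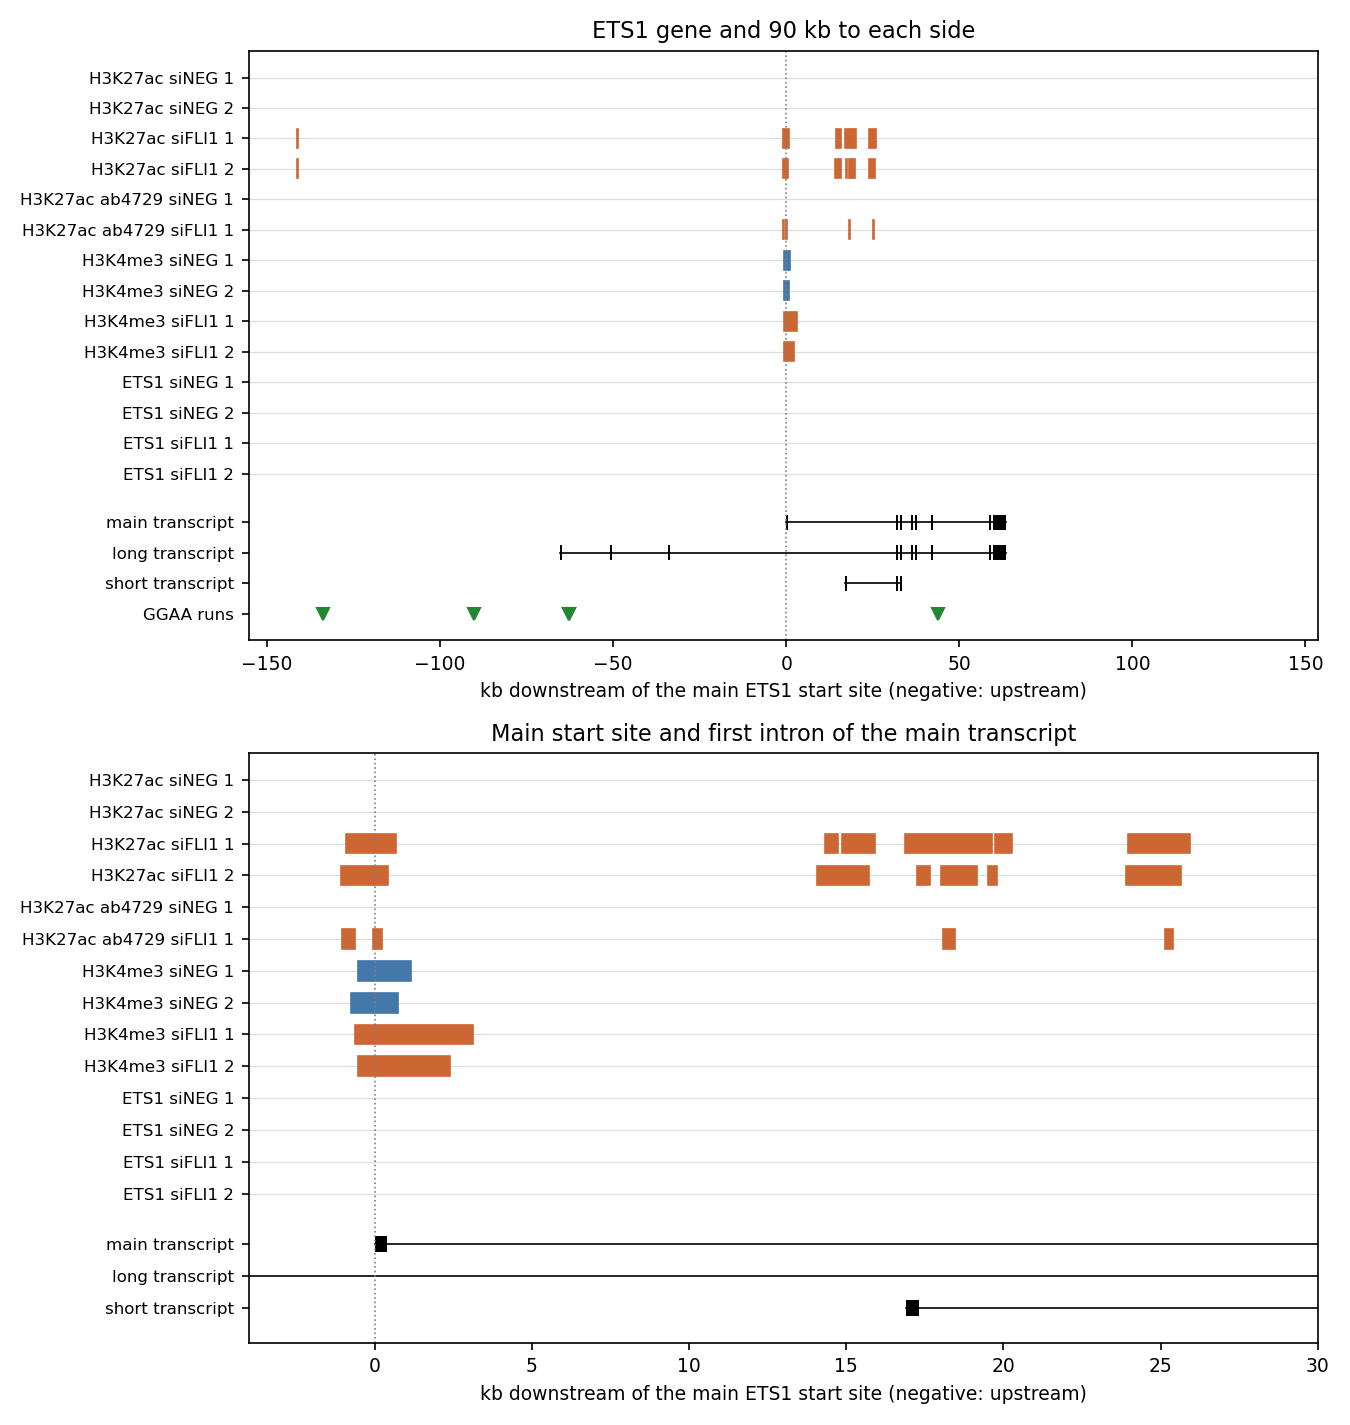
Peaks of the 14 lists (1 line per library, siNEG in blue and siFLI1 in orange) against the distance from the main ETS1 start site in kb, over the whole window (top) and around the main start site and the first intron of the main transcript (bottom). Black boxes are exons of 3 transcripts and green triangles in the top panel are the 5 GGAA runs, of which a close pair overlaps near the start of the long transcript; H3K27ac peaks appear in the siFLI1 lines only.

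Region 3 (128506407 to 128508222, centred 15.0 kb downstream) had the highest fold, the authors' ratio of a peak to its local background. Its strongest peak had a fold of 12.3 in siFLI1 replicate 1 and of 9.89 in replicate 2, with −log10 p of 43.8 and 35.0. These folds exceeded those of 91.3% and 86.1% of the peaks in their lists. The region was thus among the stronger H3K27ac peaks of both siFLI1 libraries, and neither siNEG list held a peak there.

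Region 2 (128502028 to 128505448, 3421 bp, centred 18.6 kb downstream) was the widest. Its strongest peak had a fold of 9.29 in replicate 1 and 8.22 in replicate 2, with summits 2 bp apart. It comprised 2 peaks in replicate 1 and 3 in replicate 2, so the same stretch was cut differently in the 2 lists. Its edge nearest to the promoter overlapped the first exon of ENST00000608978, a short transcript that starts inside the intron.

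Region 1 (128496379 to 128498409, centred 24.9 kb downstream) had folds of 5.32 and 6.02, with summits 989 bp apart. The 3 intronic regions together spanned 11.8 kb. They held 6731 of the 8639 bp covered by H3K27ac peaks in replicate 1 (77.9%) and 5233 of 7090 bp in replicate 2 (73.8%). In these libraries most of the listed acetylation lay in the first intron and not at the promoter, which did not hold in the ab4729 library, where intronic peaks covered 622 bp and promoter peaks 685 bp.

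Region 4 (128521621 to 128523370) covered exon 1 of the main transcript and the promoter. Its fold was 9.42 in replicate 1 and 6.41 in replicate 2, the widest relative gap between replicates among the 5 regions. Its summits lay 0.704 and 0.681 kb upstream of the main start site. Region 5 (128663319 to 128663707, 389 bp) was the smallest and weakest, with folds of 4.17 and 4.53. It lay 141 kb upstream, in an intron of the long non-coding RNA gene ENSG00000245008.4, and 22.8 kb from the start of FLI1, so it is closer to FLI1 than to the ETS1 promoter.

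Mean folds (± SD, n = 2) were 11.1 ± 1.67 in region 3, 8.75 ± 0.756 in region 2, 7.91 ± 2.13 in region 4, 5.67 ± 0.496 in region 1 and 4.35 ± 0.254 in region 5. In that order, the libraries' ranges overlapped between regions 2 and 4 and between no other neighbours. A fold compares a peak with its own surroundings, so this order describes the 2 siFLI1 lists and was not tested.

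**Figure D2:**
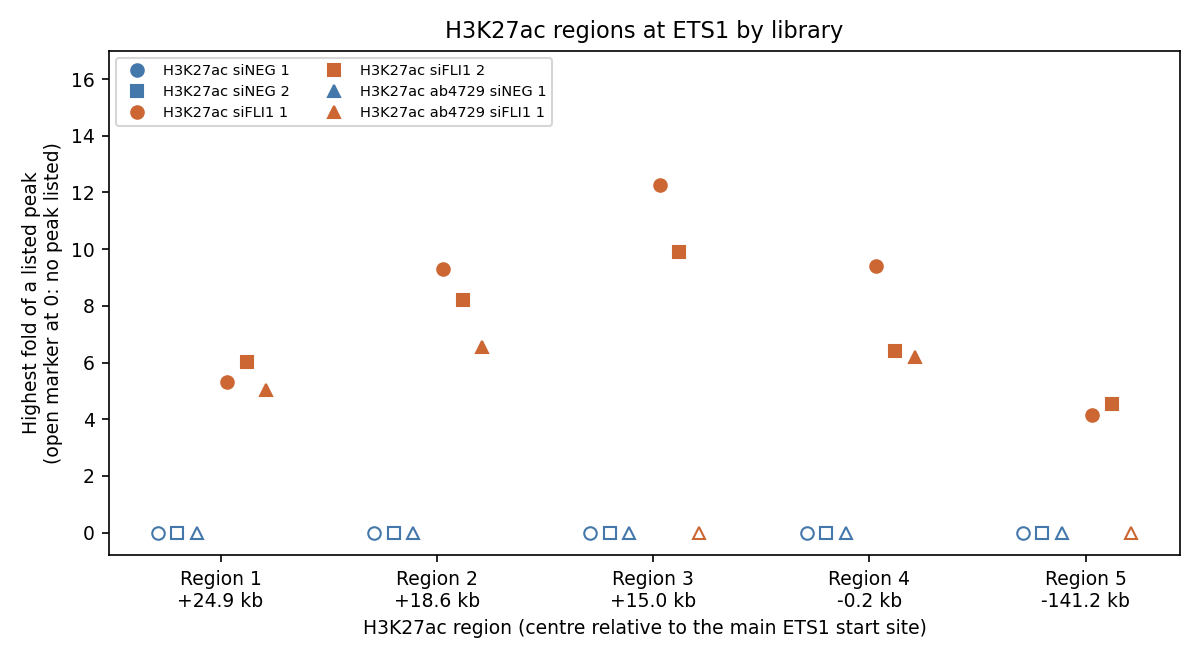
Highest fold of a listed H3K27ac peak (vertical axis, linear, ratio to local background) in each of the 5 regions, by library (circles and squares for replicates 1 and 2, triangles for ab4729). Open markers at 0 mean that no peak was listed: all siNEG markers are open, and the ab4729 siFLI1 marker is open at regions 3 and 5.

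Covered length in the window was 0 and 0 bp in siNEG and 8639 and 7090 bp in siFLI1. The means were 0 and 7864.5 ± 1095 bp (SD, n = 2), and the groups did not overlap (exact two-sided permutation test, p = 0.33, the smallest that 2 libraries against 2 can give). Absence from a list is not absence of the mark. Heights were worked out under the MACS2 formulas, an assumption, with the siFLI1 background at these peaks carried over to siNEG. On that basis a summit of 12 to 18 fragments would enter a siNEG list, while the strongest peak of each region implied 24 to 53 fragments in siFLI1. The siNEG background and depth there were not known, so the 2 ranges may not be on the same scale. The strongest ETS1 peak, by −log10 p, exceeded 86.8% and 91.2% of the peaks in the siNEG lists, and the weakest 16.0% and 14.9%. Summit heights of the siFLI1 pair across the genome differed by no more than counting noise (chi-square per degree of freedom 0.927 over 16400 regions), against 1.09 over 16155 regions for siNEG. The siFLI1 lists shared only 1 identical interval, and they were kept as 2 libraries. Counted as 1 sample, they would leave the same smallest p.

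The stretch without an H3K27ac peak in either siNEG list was far longer than the gene. It ran from 126633362 to 128788966, 2156 kb, and touched 3 protein-coding genes, ETS1, FLI1 and KIRREL3, an adhesion protein of the immunoglobulin superfamily. How often stretches this long occur elsewhere in the genome is not given here, so its length is a description only. The siFLI1 lists held 12 and 13 H3K27ac peaks in it, of which 7 each were those at ETS1. The H3K4me3 lists held 2 peaks each there in both arms.

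The ab4729 libraries served as a check with another antibody label. No peak was listed in the window in siNEG, and 4 were listed in siFLI1, covering 1307 bp. All 4 lay inside the replicated regions: 1 in region 1 (fold 5.04), 1 in region 2 (fold 6.54) and 2 in region 4 (folds 6.20 and 3.44). Regions 3 and 5 had none, although region 3 was the strongest in the replicated pair. Of 58322 merged ab4729 regions, 49.2% were in the siFLI1 list only and 14.6% in the siNEG list only, so presence in the siFLI1 list alone was common in this pair. There was 1 library per arm and hence no test.

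The promoter was already marked by H3K4me3 in control cells, and the mark was wider and of higher fold in the siFLI1 lists. A single H3K4me3 region was listed in the window, in all 4 lists, as were 62.6% of 20727 merged H3K4me3 regions, of which 2.17% were gained and 2.83% lost. In siNEG its peak ran over 1691 bp in replicate 1 and 1472 bp in replicate 2, with folds of 12.8 and 11.4. In siFLI1 it ran over 3753 and 2929 bp, with folds of 27.9 and 27.8. Fold and width were each higher in both siFLI1 libraries than in both siNEG libraries, with no overlap.

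The added width lay on the side of the gene body. The upstream edge stood 0.534 and 0.738 kb upstream of the main start site in siNEG and 0.631 and 0.537 kb in siFLI1, which overlap. The downstream edge stood 1.16 and 0.733 kb into the gene in siNEG and 3.12 and 2.39 kb in siFLI1, which do not. Summits stayed within 0.157 to 0.309 kb downstream of the start site in all 4 lists.

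The log2 fold was 1.21 higher in siFLI1 (SD 0.12 in siNEG and 0.0039 in siFLI1, n = 2 each; exact two-sided permutation test, p = 0.33), a ratio of 2.31. Over the 12984 regions in all 4 H3K4me3 lists the median difference was 0.07 and the middle 90 percent lay between −0.64 and 0.82. The ETS1 difference was at percentile 98.7, with 175 regions at least as large. The log2 width was 1.07 higher (SD 0.14 and 0.25; exact permutation p = 0.33), at percentile 98.9 and against a median of −0.07. Separated groups alone were common: 28.9% of these regions had a higher fold in both siFLI1 libraries and 17.3% a larger width. Within its list the peak moved from the 43.4 and 44.1 percentiles of fold to 52.6 and 52.4, so it stood near the middle of the list in each arm. Covered length was 1581.5 ± 155 bp in siNEG and 3341 ± 583 bp in siFLI1 (SD, n = 2; exact permutation p = 0.33).

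**Figure D3:**
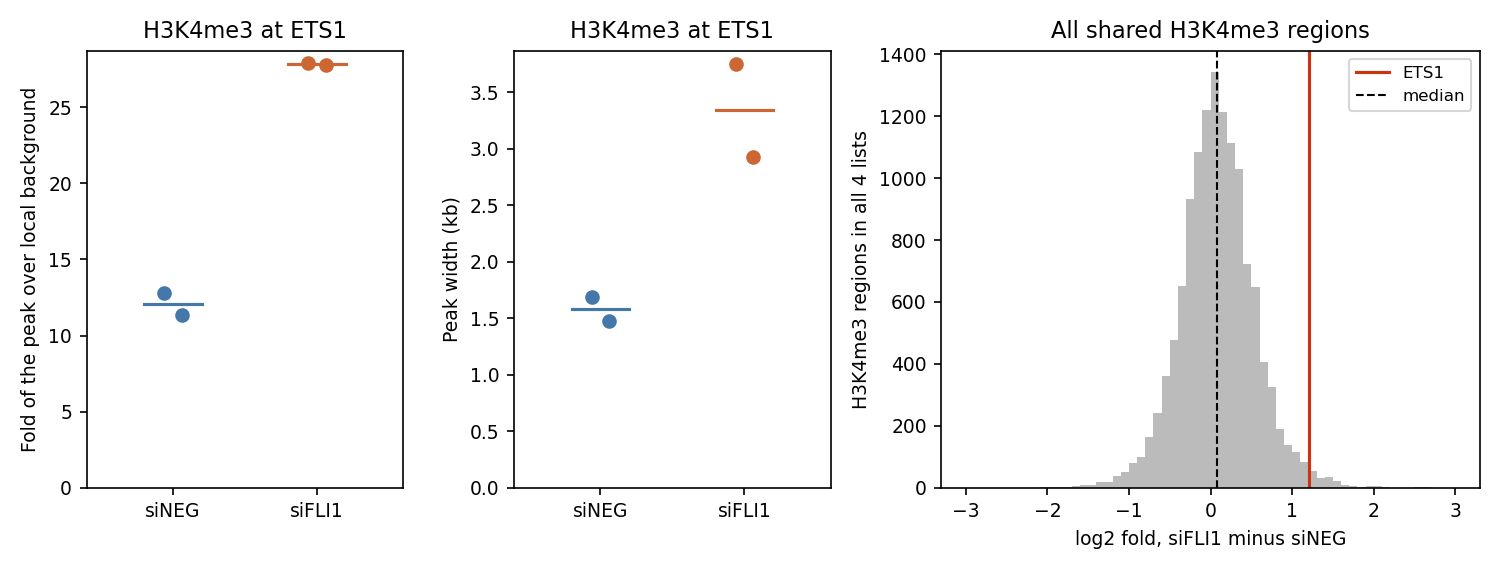
Fold over local background (left) and width in kb (middle) of the ETS1 H3K4me3 peak in each library (points; bars are means), and the log2 fold difference, siFLI1 minus siNEG, of all 12984 H3K4me3 regions in all 4 lists (right, grey histogram). The ETS1 region (red line, 1.21) lies in the upper tail, away from the median (dashed line, 0.07).

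An H3K4me3 region kept in all 4 lists while H3K27ac was gained over it was uncommon. Of the 12984 shared regions, 2.14% overlapped a gained H3K27ac region and no siNEG H3K27ac peak, and 1.11% also had a higher fold in both siFLI1 libraries. ETS1 was among these 144.

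ETS1 has 9 annotated transcripts with 8 start positions, and H3K4me3 was listed only at the main cluster of 3. The starts at 128522201, 128522264 and 128522310 lay under H3K4me3 in all 4 lists and under H3K27ac in both siFLI1 lists. The upstream promoter, 65.2 kb away, where the long transcript (ENST00000392668), ENST00000525404 and ENST00000527676 start, had no peak of any list within 1 kb. The start of the short transcript ENST00000608978, 16.9 kb downstream, lay under H3K27ac in siFLI1 replicate 1 alone and under no H3K4me3 peak. ENST00000530924, which starts 58.4 kb downstream, had no peak. A peak of any list lay within 1 kb of 4 of the 8 positions, namely the main cluster and the start of the short transcript.

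Of 4 other genes that start in the window, the microRNA gene MIR6090, 0.08 kb upstream on the opposite strand, lay under the same H3K4me3 peaks in all 4 lists and the same replicated H3K27ac peaks in both siFLI1 lists. These marks cannot be told apart from those of ETS1. The ab4729 siFLI1 list had a peak over the 3 main ETS1 starts and none over the MIR6090 start. The antisense gene ETS1-AS1, 3.83 kb upstream, and the long non-coding RNA genes ENSG00000245008 and ENSG00000288975 had no peak within 1 kb of a start.

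The ETS1 protein itself was not listed at its own gene. All 4 ETS1 lists held 0 peaks in the window, and the nearest peaks were 8032 and 9932 kb away in siNEG and 1637 kb away in both siFLI1 lists. With 10 kb to each side, 82.5% of 19970 protein-coding genes also held 0 peaks in all 4 lists, so this was the common case. Across the genome 44% of 2706 merged ETS1 regions were gained and 0.0739% lost, while 4.66% had a peak in all 4. Binding of ETS1 below the limit of its lists cannot be seen in them.

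Few genes had as many gained H3K27ac regions as ETS1 without a siNEG peak. The counts in this paragraph use the number of regions at ETS1 as their limit and were chosen after its values were seen. With 10 kb to each side, 10 of 19970 protein-coding genes (0.0501%) had at least 4 gained regions and no siNEG H3K27ac peak. Counts were made per gene, so genes whose intervals overlap can share regions, and longer genes can hold more of them. ETS1 had 4, and 4 of the others had more: PHLDB2 had 7, and COL4A1, PLCXD2 and TP63 had 5 each. PHLDA1, NUAK1, C1orf87, LDLRAD4 and SAMD12 had 4 each, as did ETS1. All but ETS1 also had from 1 to 6 regions listed in a single siFLI1 library. Where such regions are not allowed, ETS1 alone remains, 0.00501% of the 19970 genes. At least 4 regions of any kind were found at 8805 genes, and 198 genes had only gained regions when any number was allowed. H3K27ac in both siFLI1 lists and in no siNEG list was found at 462 genes (2.31%). Among those 462, ETS1 had the longest covered length in siFLI1, with a difference of 7535 bp against a median of 768.5. Among all genes, 244 had a difference in covered length at least as large, ETS1 included.

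The genes whose peaks were most like ETS1 were found by the Euclidean distance of log10(covered bp + 100) over the 14 lists, among 19969 protein-coding genes on chromosomes 1 to 22 and X. PHLDA1, a pleckstrin-homology-like protein linked to cell survival, was nearest at a distance of 0.575, against a median of 2.97. Its H3K27ac covered 0 and 0 bp in siNEG and 3837 and 5480 bp in siFLI1, and its H3K4me3 2009 and 2896 against 5470 and 5725 bp. NUAK1, a kinase related to AMPK, followed at 0.685, with H3K27ac over 0 and 0 bp against 5495 and 2819 bp. PHLDB2, which helps to anchor microtubules at the cell cortex, came next at 0.726, with 0 and 0 against 5469 and 5144 bp. C1orf198 stood at 0.740 with 0 and 0 against 3850 and 3897 bp. EHD4, a protein of endocytic recycling, stood at 0.825 with 0 and 427 bp against 7753 and 5978 bp. H3K4me3 at NUAK1 covered 842 and 1023 bp in siNEG and 2851 and 2784 bp in siFLI1. At PHLDB2 it covered 2921 and 2882 against 4021 and 4809 bp, and at EHD4 1780 and 1867 against 2282 and 2481 bp. At C1orf198 H3K4me3 changed little, with 3498 and 3710 against 3732 and 3790 bp. All 5 were at 0 in the 4 ETS1 lists, as were 82.5% of protein-coding genes, and these lists entered the distance.

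No listed partner or regulator of ETS1 had several gained regions and none kept. Of 15 such genes, 1 had more gained than lost H3K27ac regions within 10 kb and 3 had more lost, against 18.8% and 9.03% of all protein-coding genes. The gene with more gained was CAMK2D, a calcium-calmodulin kinase subunit, with 1 gained region. PAX5, a B-lineage factor that binds DNA together with ETS1, had 6 lost regions, and its covered length was 23403 and 19046 bp in siNEG and 7574 and 8274 bp in siFLI1. The coactivator CREBBP had 2 lost regions of 53, and its covered lengths overlapped, at 20004 and 22825 bp in siNEG and 22783 and 19903 bp in siFLI1. The hypoxia factor EPAS1 had 1 lost region. Its covered length was nevertheless larger in both siFLI1 libraries, with 15800 and 14803 bp in siNEG and 18079 and 16259 bp in siFLI1. Of the other 11, FOS, a subunit of AP-1, had 1 gained and 1 lost, and 10 had neither. RUNX1, a factor that cooperates with ETS1 on DNA, covered 0 and 0 bp in siNEG and 0 and 355 bp in siFLI1. The median difference in covered length over the list was 411 bp, against 15 bp over all genes. None of the 15 had a gained or lost H3K4me3 region, against 2.47% and 4.48% of all genes with more gained or more lost.

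Among 17 known targets of ETS1, 7 had more gained than lost H3K27ac regions and 2 had more lost, against 18.8% and 9.03% of all protein-coding genes. The other 8 had neither. NRP1, a co-receptor for VEGF and semaphorins, had 4 gained, with 7347 and 6473 bp covered in siNEG and 12061 and 11698 bp in siFLI1. CDH5, the cadherin of endothelial junctions, had 2 gained, with 300 and 0 bp against 1462 and 1057 bp. FLT1, a VEGF receptor, had 1 gained, with 407 and 0 bp against 2896 and 2343 bp, and it also had 1 gained H3K4me3 region. The integrin subunit ITGB3 covered 0 and 0 bp in siNEG and 681 and 784 bp in siFLI1. MET, the receptor for hepatocyte growth factor, covered 8512 and 8348 bp against 13448 and 11416 bp, with 1 gained H3K27ac and 1 lost H3K4me3 region. PLAU, the urokinase gene, and ENG, a TGF-beta co-receptor, had 1 gained region each.

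Targets with more lost regions were MMP9, a matrix metalloproteinase, with 4548 and 4600 bp in siNEG and 2374 and 2290 bp in siFLI1, and the VEGF receptor KDR, with 650 and 550 bp against 275 and 0 bp. MMP1, MMP3, SPP1, TEK and TBX21 had no H3K27ac region in any of the 4 lists. The median difference over the 17 targets was 128 bp. Neither list was tested, and none of these genes had as many gained regions with none kept as ETS1 did.

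**Figure D4:**
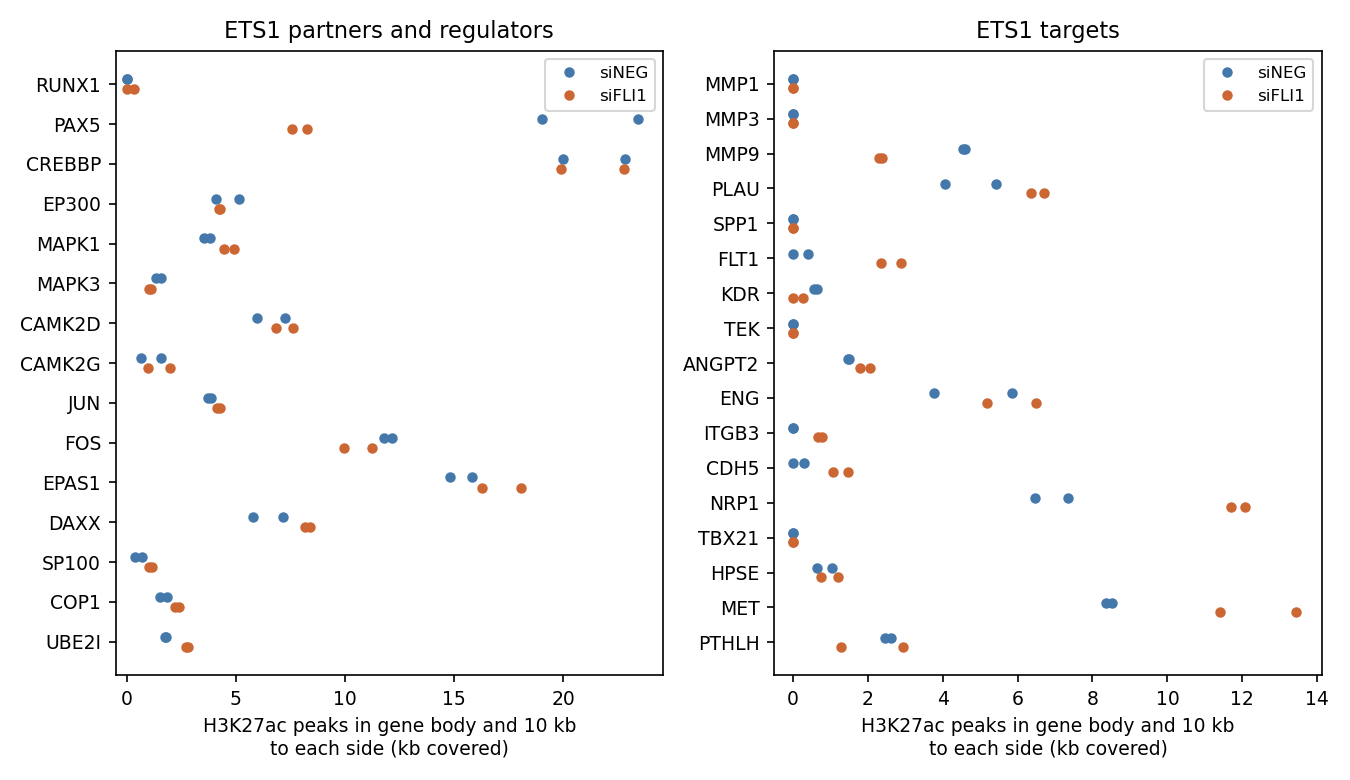
H3K27ac covered length in kb within the gene body and 10 kb to each side, for 15 partners and regulators (left) and 17 targets of ETS1 (right), with 1 point per library (siNEG blue, siFLI1 orange). PAX5 lies lower and NRP1 higher in both siFLI1 libraries, and 5 targets are at 0 in every library.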

How the data were processed

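Chromatin was immunoprecipitated from TC-32 cells and sequenced. The submitters' processing notes name cutadapt 4.4, BWA 0.7.17, Picard 2.17.11 and MACS2 2.1.1, with the builds GRCh38, hg38 and dm6, and give no role for each. The peak lists hold 1 library each. Per the values deposited, the authors' fold is a ratio of a peak to its local background, and the authors' −log10 columns are a p-value and a q-value per peak. The authors' deposited score column was not used, and the deposited summit offset gave summit positions.

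Lists of an antibody were merged at overlaps of 1 bp or more. Gained regions were in both siFLI1 lists and no siNEG list, and lost regions the reverse. Covered base pairs were compared by exact permutation tests (scipy 1.17.1, Python 3.11.15). Whole fragment heights were derived from fold and −log10 p under the MACS2 formulas. For each whole height n the expected level was solved from −log10 p, and n was accepted where the fold implied a height from n to n + 1. Peaks with a −log10 p too high for this calculation were given no height. A height was found for 64.3% to 67.5% of H3K4me3 peaks on chromosome 11 and at least 99.5% of the others. At ETS1, 16 of the 22 peaks had 1 such height and 6 had 2 adjacent ones. The scripts were tested on simulated data. Genes named are ETS1, genes starting in the window, members of both lists and the 5 genes with the most similar peaks. The neighbour KIRREL3 and the other genes with at least 4 gained regions and no siNEG peak were named after their values were seen. Members and lists were chosen with earlier results of these data known. Alternatives were a stricter q-value, equal list lengths, a flank of 10 kb, other overlap rules and leaving out each list.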

Additional observations from a re-analysis of the deposited data

How the results depend on the processing

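The 5 gained H3K27ac regions stayed at 5 with −log10 q of at least 5, with lists of equal length, with 50% overlap and with no peak allowed within 1 kb, and were 4 with a flank of 10 kb. Leaving out 1 list gave 5 to 7. Lost H3K27ac regions and gained or lost H3K4me3 and ETS1 regions were 0 in every setting run; for lost H3K27ac regions and for ETS1 no setting could give another value, since the siNEG H3K27ac lists and all ETS1 lists hold no peak in the window. The H3K27ac difference in covered length was 7090 to 8639 bp with 1 list left out, and that of H3K4me3 was 1347.5 to 2171.5 bp. Counting H3K4me3 regions in place of base pairs gave a difference of 0 (exact permutation p = 1), since each list holds 1 region. Replicate numbers are shared between arms, and no label says that they mark a shared culture; with the replicate block the differences were 7864.5 and 1759.5 bp (exact sign-flip permutation test, p = 0.5 for both, the smallest that 2 pairs can give). The ab4729 difference was 916 bp both with −log10 q of at least 5 and with equal numbers of the strongest peaks, since the weakest of its 4 peaks drops out. GGAA runs numbered 11 with at least 3 units, 1 with at least 6 units and 3 with a flank of 10 kb. The flanks of 0 and 90 kb in the count of genes with every region gained were chosen after seeing the data, and each gave 1 gene. Allowing regions in a single siFLI1 list, also chosen after seeing the data, gave 10 genes. Peak lists show what passed a limit in each library, so a difference in immunoprecipitation strength between libraries cannot be told apart from a difference in the mark.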
